A study of Homo sapiens with 6 samples.

Results

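The genes described here are 10 members of the endoplasmic reticulum (ER) chaperone and unfolded protein response set: HSPA5, HSP90B1, XBP1, DNAJB9, HERPUD1, SDF2L1, PDIA4, DNAJC3, CALR and ATF6. They were taken by symbol from a deposited RNA-seq table of 16910 genes, and all 10 were in it and passed the filter on low counts. The 6 libraries came from TOV21G, an established human ovarian clear cell carcinoma line, with 2 libraries per group. The siGYS1 libraries carry the genotype label GYS1 knock down, the sip53 libraries the label p53 knock down, and the NC libraries the label WT. NC is read as the control siRNA from its name alone. The labels do not give the siRNA sequences, the time after transfection or whether replicates were separate cultures, and p-values therefore measure only the spread between these libraries. GYS1 encodes the muscle-type glycogen synthase, and the study asked what GYS1 and p53 do in this line.

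The ER folds secreted and membrane proteins with the help of HSPA5 (also called BiP or GRP78), an HSP70 chaperone, and HSP90B1 (GRP94), an HSP90 chaperone. When unfolded proteins accumulate, the sensors ERN1 (IRE1), EIF2AK3 (PERK) and ATF6 start the unfolded protein response. IRE1 splices the XBP1 mRNA so that it encodes an active transcription factor, ATF6 is cut to release one, and PERK slows translation and favours that of ATF4. ATF6 and XBP1 act on chaperone genes through the ER stress response element (ERSE), in which the CCAAT factor NF-Y binds one end and ATF6 the other, and on HERPUD1 also through the related ERSE-II. Counts per gene do not separate the spliced from the unspliced XBP1 mRNA, nor do they show the cutting of ATF6.

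The promoters of HSPA5, XBP1 and HERPUD1 are shown because these genes differ in their changes described further on and hold the letters of these elements. Each is the sense strand of its gene, 250 bases before to 50 after the RefSeq gene start, from RefSeq's GRCh38.p14, with the matching letters in capitals. HSPA5 lies at chr9:125241294-125241593 on the minus strand, XBP1 at chr22:28800520-28800819 on the minus strand, and HERPUD1 at chr16:56931892-56932191 on the plus strand.
HSPA5: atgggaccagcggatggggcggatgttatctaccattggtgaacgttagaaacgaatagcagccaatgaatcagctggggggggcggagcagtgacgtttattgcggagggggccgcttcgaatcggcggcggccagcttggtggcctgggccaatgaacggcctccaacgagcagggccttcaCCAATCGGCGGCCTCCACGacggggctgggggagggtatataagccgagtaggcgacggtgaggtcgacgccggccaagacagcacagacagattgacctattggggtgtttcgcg
XBP1: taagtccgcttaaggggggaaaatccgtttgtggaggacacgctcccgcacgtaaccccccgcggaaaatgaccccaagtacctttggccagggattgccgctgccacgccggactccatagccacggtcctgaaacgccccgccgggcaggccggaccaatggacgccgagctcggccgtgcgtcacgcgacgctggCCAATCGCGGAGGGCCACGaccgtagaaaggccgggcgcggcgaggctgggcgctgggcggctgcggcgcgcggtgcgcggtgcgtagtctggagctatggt
HERPUD1: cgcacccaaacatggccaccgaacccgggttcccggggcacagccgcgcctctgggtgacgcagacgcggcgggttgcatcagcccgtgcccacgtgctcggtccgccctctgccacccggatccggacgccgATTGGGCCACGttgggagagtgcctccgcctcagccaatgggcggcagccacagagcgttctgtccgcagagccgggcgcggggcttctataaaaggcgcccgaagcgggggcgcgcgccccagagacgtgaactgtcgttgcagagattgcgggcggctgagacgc

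The words searched on both strands were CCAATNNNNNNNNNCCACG for ERSE, ATTGGNCCACG for ERSE-II and TGACGTGG for UPRE, the unfolded protein response element. The ERSE word stood in the promoters of 4 of the 10 genes, HSPA5, HSP90B1, XBP1 (the first of its 2 entries) and CALR, and in 0.0916% of all 27305 genes of that table. The ERSE-II word stood in HERPUD1 and SDF2L1, and in 0.0696% of all genes. The UPRE word was in none of the 10, and in 0.927% of all genes. As said above, ERSE is known to act in chaperone genes and ERSE-II in HERPUD1. Matches in such genes were thus foreseeable, and the shares beside them are no result about these data. The ERSE words of HSP90B1, one on each strand, and of CALR, on the reverse strand, and the ERSE-II word of SDF2L1, on the reverse strand, read as follows on the strand that holds them. The end farther from the gene start lies 194 and 89 bases upstream in HSP90B1 (chromosome 12), 225 bases upstream in CALR (chromosome 19) and 188 bases upstream in SDF2L1 (chromosome 22).
HSP90B1, sense strand: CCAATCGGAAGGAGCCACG
HSP90B1, reverse strand: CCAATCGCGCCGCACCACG
CALR, reverse strand: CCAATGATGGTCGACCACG
SDF2L1, reverse strand: ATTGGTCCACG
A match is a stretch of letters and says nothing about binding in these cells, and DNAJB9, PDIA4, DNAJC3 and ATF6 hold none of the 3 words in this window. Only exact words were searched, so elements with a changed letter were not counted in any gene.

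The read counts of a library summed to between 17425000 and 18097337. GYS1 was at 1.69 and 1.67 FPKM (fragments scaled by gene length and library size) with siGYS1, against 28.6 and 27.3 FPKM with NC (edgeR log2 -3.99, SE 0.11, adjusted p = 1.28e-07). Clear cell carcinoma markers, of which 3 of 4 reached 1 FPKM in every group, summed to 328 to 369 FPKM. Leukocyte markers (3 of 5 in the table) and endothelial markers (3 of 4) summed to at most 1.53 FPKM, and fibroblast markers (5 of 5) to 10.8 to 21.7 FPKM, with COL3A1 at 0 with siGYS1 and LUM at 0 with NC. The sum of 6 epithelial markers, of which 5, 5 and 6 reached 1 FPKM, was lower in both knockdowns (276 to 329 FPKM with siGYS1 and 329 to 344 with sip53, against 435 to 464 with NC), and its part in the results was not tested. The share of counts on 13 mitochondrial genes was 5.07% and 5.47% with siGYS1 and 4.81% and 5.0% with sip53, against 5.54% and 6.0% with NC, and its part was not tested either. Of the libraries, siGYS1 replicate 1 and NC replicate 2 stood apart: their deviations in log2 CPM (counts scaled to library size) followed gene length, with Spearman rho across genes of 0.54 and -0.39, against -0.09 to 0.04 in the other 4. Where leaving out 1 library ended or made a call of the 10 genes, or moved a list's count by over 1.5 times, most such values are given beside the result.

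Together the 10 genes made up 0.292% to 0.295% of the summed TPM, a length-scaled share of transcripts, with siGYS1 and 0.290% to 0.297% with sip53, against 0.325% to 0.327% with NC. HSPA5, HSP90B1 and CALR took 80.3% to 82.6% of that sum in each library. On the FPKM scale, which is per length, CALR was the highest of the 10 in every library and DNAJB9, DNAJC3, HERPUD1 and ATF6 were all below 50 FPKM.

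**Figure D1:**
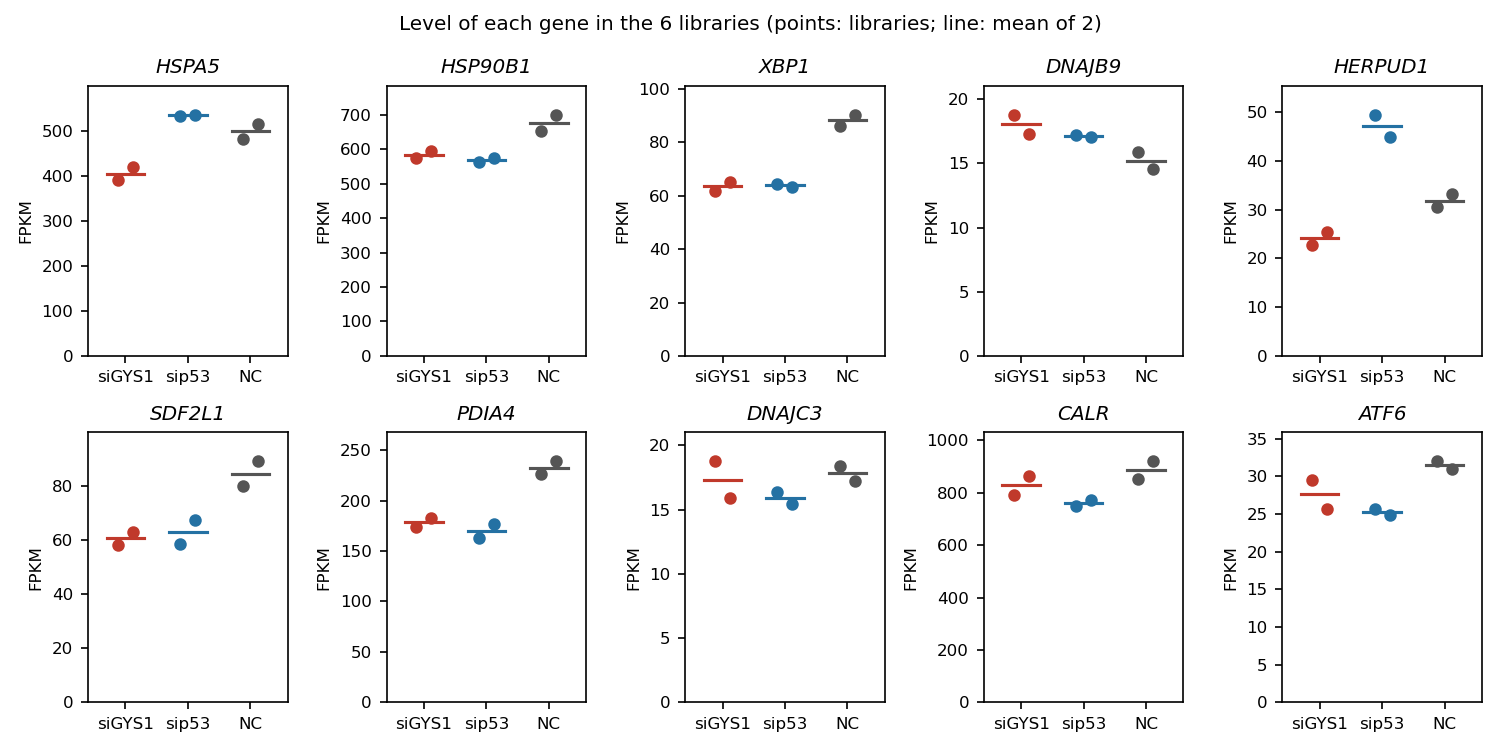
FPKM (vertical axis, from 0) of the 10 genes in the siGYS1, sip53 and NC libraries; points are the 2 libraries of a group and lines their means. XBP1, SDF2L1 and PDIA4 lie lower in both knockdowns than in NC, HERPUD1 is highest with sip53 (44.9 and 49.5 FPKM) and HSPA5 lowest with siGYS1 (390.4 and 419 FPKM).

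In the account that follows, rises and falls are those called at an adjusted p below 0.05 by edgeR's quasi-likelihood test over 13235 genes, and changes are edgeR log2 fold changes with their standard error (SE). With siGYS1, 4 of the 10 genes fell (XBP1, SDF2L1, PDIA4 and HSPA5) and DNAJB9 rose, beside 9.24% of all tested genes that fell, 10.4% that rose and 19.7% called in either direction. With sip53, XBP1, PDIA4 and SDF2L1 fell and HERPUD1 and DNAJB9 rose, that is 5 of 10 genes, beside 26.5% of all tested genes that fell, 23.4% that rose and 49.9% called either way. With sip53, the share of the 10 genes called was near that of all genes. The median change of the 10 was -0.21 with siGYS1 (all genes -0.01) and -0.09 with sip53 (all genes -0.03). Both comparisons use the same 2 NC libraries, so their likeness in XBP1, SDF2L1, PDIA4 and DNAJB9 is no independent support for either. Without NC replicate 2, the 5 calls with siGYS1 became 0 and the 5 with sip53 became 2. Without NC replicate 1 they became 2 and 4, without sip53 replicate 1 they became 1 and 2, without sip53 replicate 2 they became 1 and 4, and without siGYS1 replicate 1 the calls with siGYS1 became 1.

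**Figure D2:**
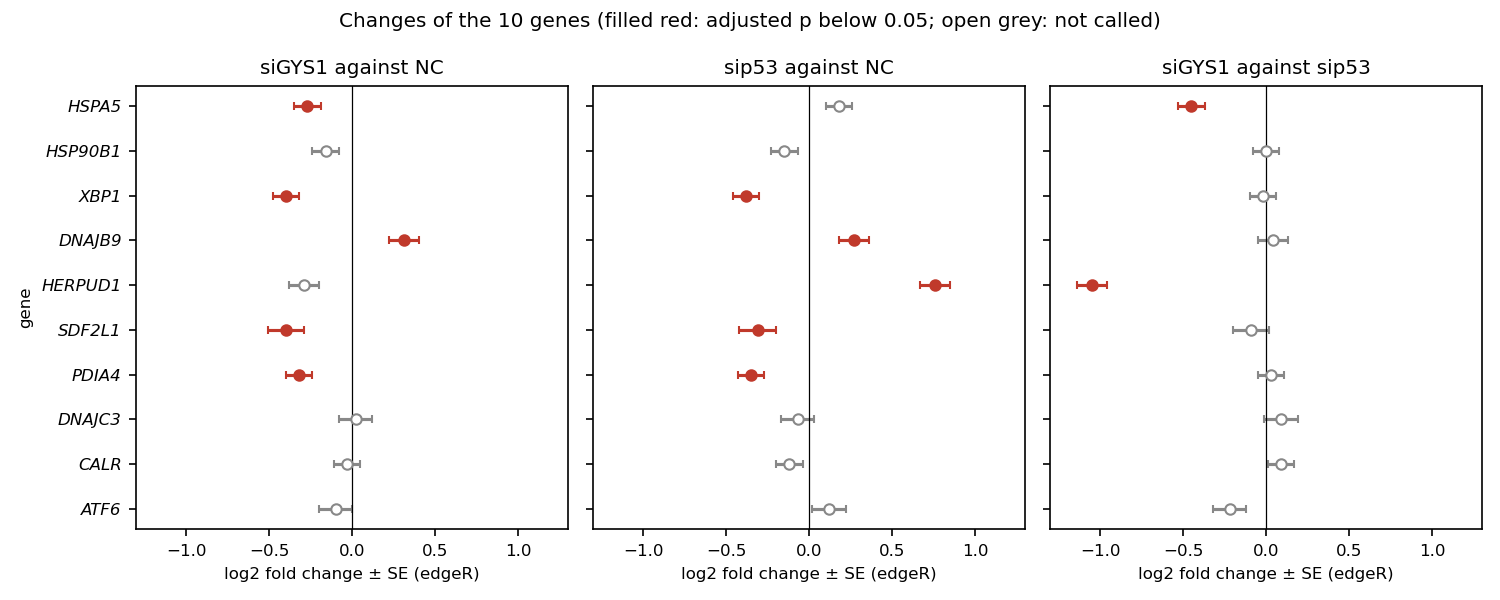
edgeR log2 fold change (horizontal axis, bars ± 1 SE) of the 10 genes in siGYS1 against NC, sip53 against NC and siGYS1 against sip53; filled red points passed the test. HERPUD1 at 0.76 with sip53 and -1.05 between the knockdowns lies farthest from 0.

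Among the chaperones, HSPA5, the HSP70 of the ER lumen that holds the sensors inactive, had 390.4 and 419 FPKM with siGYS1, 534 and 535 FPKM with sip53, and 482 and 516 FPKM with NC. The siGYS1 libraries were below and the sip53 libraries above all NC libraries, with no overlap between the 3 groups. Lack of overlap between groups of 2 libraries, here and below, only describes the values. With sip53 it also held against NC for HSP90B1, DNAJC3, CALR and ATF6, which were not called there. With siGYS1 it held against NC for HSP90B1, HERPUD1 and ATF6, again without a call. The share of all genes without overlap was not counted. HSPA5 fell by 17.2% with siGYS1 (log2 -0.27, SE 0.08, adjusted p = 0.0498). With sip53 its log2 change was 0.18 (SE 0.08, adjusted p = 0.102), which did not pass. Between the knockdowns it was lower with siGYS1 than with sip53 (log2 -0.45, SE 0.08, adjusted p = 0.00203), a call held in 15 of 15 alternatives. The call of siGYS1 against NC held in 4 of 15 alternatives (adjusted p 0.00366 to 0.304): it was lost without siGYS1 replicate 1 (-0.21), sip53 replicate 1 or 2 (-0.27 each), NC replicate 1 (-0.34) or NC replicate 2 (-0.20), while the sip53 change passed without siGYS1 replicate 2 (0.20).

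HSP90B1, the HSP90 of the ER that folds integrins and Toll-like receptors, had 574 and 593 FPKM with siGYS1, 562 and 575 FPKM with sip53, and 654 and 699 FPKM with NC. Both knockdowns were below both NC libraries in FPKM, and overlapped each other. Its exons overlap those of C12orf73 on the opposite strand, a gene at 10.6, 9.96 and 10.3 FPKM on average with siGYS1, sip53 and NC. Its log2 changes of -0.16 (SE 0.08, adjusted p = 0.19) with siGYS1 and -0.15 (SE 0.08, adjusted p = 0.13) with sip53 did not pass, except with length-corrected offsets (-0.15 and -0.12, adjusted p = 0.0358 and 0.0413). CALR, the lectin chaperone calreticulin that binds calcium and newly made glycoproteins, had 793 and 865 FPKM with siGYS1, 751 and 772 FPKM with sip53, and 853 and 920.1 FPKM with NC. The siGYS1 and NC ranges overlapped, and its log2 changes of -0.03 (SE 0.08, adjusted p = 0.817) with siGYS1 and -0.12 (SE 0.08, adjusted p = 0.27) with sip53 did not pass. With siGYS1 the sign for CALR turned to 0.03 without siGYS1 replicate 1 or NC replicate 2.

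PDIA4 (ERp72), a protein disulfide isomerase, had 174 and 182 FPKM with siGYS1, 163 and 176 FPKM with sip53, and 226 and 239 FPKM with NC. Each knockdown library was below each NC library, and the knockdowns overlapped. PDIA4 fell by 20.0% with siGYS1 (log2 -0.32, SE 0.08, adjusted p = 0.0258) and also with sip53 (-21.8%, log2 -0.35, SE 0.08, adjusted p = 0.00617). The siGYS1 call was lost without siGYS1 replicate 1 (-0.29), sip53 replicate 1 or 2 (-0.32 each), NC replicate 1 (-0.36) or NC replicate 2 (-0.28), and the sip53 call without sip53 replicate 1 (-0.30) or NC replicate 2 (-0.31); over 15 alternatives the adjusted p ran from 0.00138 to 0.185 and from 0.000291 to 0.0926.

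SDF2L1, a partner of the DNAJB11 co-chaperone that keeps misfolded proteins from aggregating, had 58.2 and 63.0 FPKM with siGYS1, 58.6 and 67.5 FPKM with sip53, and 80.04 and 89.0 FPKM with NC. No knockdown library reached the lower NC library. It fell by 24.1% with siGYS1 (log2 -0.40, SE 0.11, adjusted p = 0.0305) and also with sip53 (-19.2%, log2 -0.31, SE 0.11, adjusted p = 0.0383). With length-corrected offsets in edgeR both changes were smaller, -0.25 with siGYS1 (adjusted p = 0.0375) and -0.26 with sip53 (adjusted p = 0.0153). The siGYS1 call was lost without siGYS1 replicate 1 (-0.34), sip53 replicate 1 or 2 (-0.40 each) or NC replicate 2 (-0.32), and the sip53 call without sip53 replicate 1 (-0.19) or NC replicate 2 (-0.23); the adjusted p ran from 0.00111 to 0.214 and from 0.00337 to 0.303 over 15 alternatives.

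Of the J-domain co-chaperones, which pass clients to HSPA5, DNAJB9 (ERdj4), a repressor of IRE1, had 18.8 and 17.3 FPKM with siGYS1, 17.2 and 17.1 FPKM with sip53, and 15.9 and 14.6 FPKM with NC. All 4 knockdown libraries were above both NC libraries. It was the one gene of the 10 called higher with both, by 23.9% with siGYS1 (log2 0.31, SE 0.09, adjusted p = 0.0445) and by 20.9% with sip53 (log2 0.27, SE 0.09, adjusted p = 0.0336). Its exons overlap those of PNPLA8 and THAP5 on the opposite strand in GENCODE 29, and the labels do not say whether counting used strand, so its value is uncertain. With siGYS1, PNPLA8 was at log2 0.18 (adjusted p = 0.275) and THAP5 at 0.14 (adjusted p = 0.403), and with sip53 PNPLA8 rose (0.52, SE 0.11, adjusted p = 0.00326) and THAP5 fell (-0.33, SE 0.11, adjusted p = 0.0346). The call of DNAJB9 with siGYS1 was lost without siGYS1 replicate 1 (0.25), sip53 replicate 1 or 2 (0.31 each), NC replicate 1 (0.37) or NC replicate 2 (0.25), and with sip53 without sip53 replicate 1 (0.27), sip53 replicate 2 (0.28), NC replicate 1 (0.33) or NC replicate 2 (0.22); the adjusted p ran from 0.0073 to 0.282 and from 0.00593 to 0.207 over 15 alternatives.

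DNAJC3 (p58IPK), a co-chaperone known as an inhibitor of PERK, had 18.7 and 15.9 FPKM with siGYS1, 16.4 and 15.5 FPKM with sip53, and 18.4 and 17.2 FPKM with NC. The siGYS1 libraries spanned the NC libraries. Its log2 changes were 0.02 (SE 0.10, adjusted p = 0.924) with siGYS1 and -0.07 (SE 0.10, adjusted p = 0.599) with sip53, neither of which passed, and with siGYS1 the sign turned without siGYS1 replicate 1 (-0.10) or NC replicate 2 (-0.02).

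Of the transcription factors, XBP1 had 62.0 and 65.3 FPKM with siGYS1, 64.5 and 63.5 FPKM with sip53, and 86.2 and 90.3 FPKM with NC. The 4 knockdown libraries lay within 62.0 to 65.3 FPKM, below both NC libraries. XBP1 fell by 24.5% with siGYS1 (log2 -0.40, SE 0.08, adjusted p = 0.00986) and also with sip53 (-23.2%, log2 -0.38, SE 0.08, adjusted p = 0.00413). The sip53 call held in 15 of 15 alternatives. The siGYS1 call held in 14 of 15 (adjusted p 0.000355 to 0.0945) and was lost without NC replicate 2 (-0.37).

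ATF6 had 29.6 and 25.6 FPKM with siGYS1, 25.6 and 24.9 FPKM with sip53, and 32.0 and 31.0 FPKM with NC, so that all 4 knockdown libraries were below NC in FPKM. Its read counts did not follow this order: they were 1685 and 1503 with siGYS1, 1864 and 1816 with sip53, and 1841 and 1768 with NC. On counts, its log2 changes were -0.10 (SE 0.10, adjusted p = 0.496) with siGYS1 and 0.12 (SE 0.10, adjusted p = 0.32) with sip53, neither of which passed; without siGYS1 replicate 2 the siGYS1 change was 0.02. On log2(FPKM + 1) the sip53 change was -0.31 and passed in limma (adjusted p = 0.0317), so the direction for ATF6 with sip53 depends on the unit (adjusted p 0.0307 to 0.622 over 15 alternatives).

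FPKM and counts differ in that FPKM are divided by a gene length. A length relative to the NC mean follows from each gene's count and FPKM, after division by the median of the same ratio over the library. For ATF6 it was 1.03 and 1.02 in the siGYS1 libraries, 1.28 and 1.27 in the sip53 libraries, and 1.01 and 0.987 in the NC libraries. The mean of the sip53 libraries was 1.275 for ATF6, and 1.05% of 12774 genes reached that value, with 5th and 95th percentiles of 0.895 and 1.108. For XBP1 the length stayed between 0.992 and 1.021 in every library. For HERPUD1 it was 1.061 and 1.021 with siGYS1, 1.058 and 1.093 with sip53, and 1.024 and 0.976 with NC. ATF6 was also the one gene of the 10 with fractional read counts, in all 6 libraries. GENCODE 29 lists 2 transcripts of ATF6, a protein-coding one of 7496 bases and one of 778 bases. Which transcripts the reads came from was not tested.

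**Figure D3:**
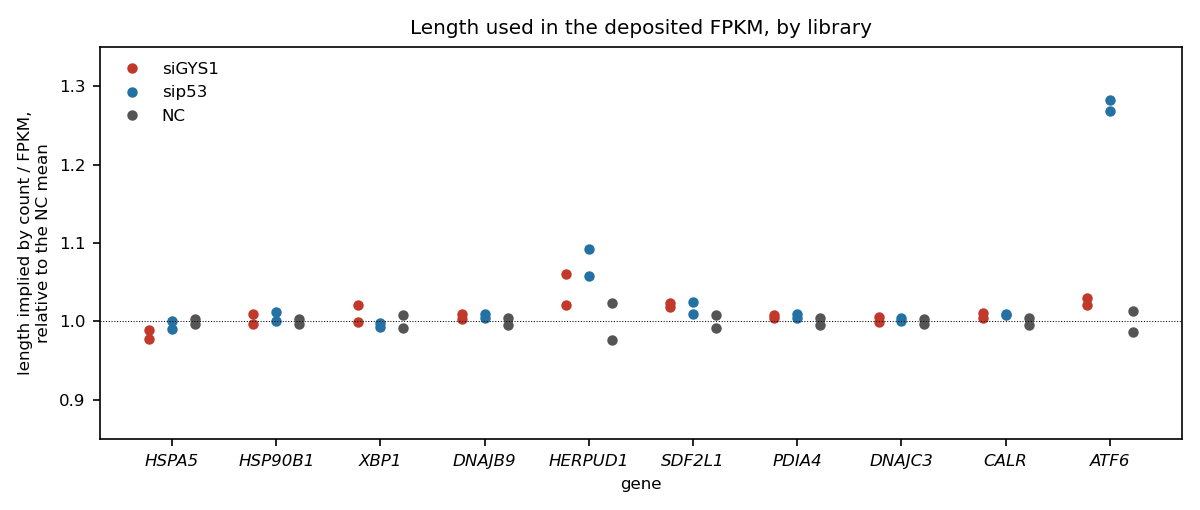
Gene length implied by the deposited count and FPKM, relative to the mean of the NC libraries (vertical axis), for the 10 genes; each point is a library of siGYS1, sip53 or NC. ATF6 in the sip53 libraries, at 1.28 and 1.27, stands above all other points.

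HERPUD1 (Herp), a membrane protein of the ER-associated degradation (ERAD) complex that sends misfolded proteins to the proteasome, had 22.85 and 25.5 FPKM with siGYS1, 49.5 and 44.9 FPKM with sip53, and 30.5 and 33.2 FPKM with NC. The 3 groups did not overlap. HERPUD1 rose by 69.4% with sip53 (log2 0.76, SE 0.09, adjusted p = 0.000118), the largest change of the 10 against NC. That call held in 15 of 15 alternatives. The size of the change depended on the unit, from 0.55 on log2(FPKM + 1) to 0.81 with length-corrected offsets. With siGYS1 its log2 change of -0.29 (SE 0.09, adjusted p = 0.0567) did not pass. It passed in 5 of 15 alternatives (adjusted p 0.0131 to 0.298), among them without siGYS1 replicate 2 (-0.33). Between the knockdowns HERPUD1 was lower with siGYS1 than with sip53 (-51.6%, log2 -1.05, SE 0.09, adjusted p = 2.41e-05), again in 15 of 15 alternatives.

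The direct comparison of siGYS1 with sip53 tests whether the 2 knockdowns differ; the NC libraries enter its fit through the estimate of the spread. HSPA5 and HERPUD1 passed, both lower with siGYS1, so 2 of the 10 were called, 2 of them lower and 0 higher. Of all tested genes 43.4% were called, 20.9% lower and 22.5% higher with siGYS1. For the 4 genes that moved the same way in both knockdowns, the difference and its 95% interval on the log2 scale were -0.02 (-0.21 to 0.17) for XBP1, 0.03 (-0.16 to 0.22) for PDIA4, -0.09 (-0.34 to 0.16) for SDF2L1 and 0.04 (-0.17 to 0.24) for DNAJB9. These intervals do not show that the levels are equal. HSP90B1 differed by -0.0 (-0.18 to 0.17), CALR by 0.09 (-0.10 to 0.28) and DNAJC3 by 0.09 (-0.14 to 0.31). ATF6 was at -0.22 (-0.44 to -0.01, adjusted p = 0.0893), which passed without siGYS1 replicate 1 (-0.33) and turned to 0.12 on log2(FPKM + 1); its adjusted p ran from 0.00275 to 0.374 over 15 alternatives.

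From the lowest to the highest mean FPKM, HERPUD1 ran siGYS1, NC, sip53, of which the neighbours siGYS1 and NC did not differ past the threshold. HSPA5 ran in the same order, with NC and sip53 not differing past it. XBP1, PDIA4, SDF2L1 and DNAJB9 each had the knockdowns as neighbours that did not differ past the threshold, and NC at the other end. For HSP90B1, CALR, DNAJC3 and ATF6 no neighbours differed past the threshold on counts.

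Set beside the promoter words printed above, the genes with the ERSE word differed in their calls. HSPA5 and XBP1 fell with siGYS1, XBP1 alone fell with sip53, and HSP90B1 and CALR passed in neither under the main setting. Whether the changes differ between these genes was not tested. With siGYS1, HSPA5 was at -0.27 (SE 0.08) and HSP90B1 at -0.16 (SE 0.08). That call of HSPA5 held in 4 of 15 alternatives. HSP90B1 passed in both knockdowns with length-corrected offsets (edgeR adjusted p = 0.0358 with siGYS1 and 0.0413 with sip53). The genes with the ERSE-II word went apart with sip53, where HERPUD1 rose by 0.76 and SDF2L1 fell by 0.31 on the log2 scale. PDIA4 and DNAJB9, which hold none of these words in the window, changed in both knockdowns. In a wider list of 20 other ER chaperone and folding genes, 18 had a promoter in the table, 4 held the ERSE word (CANX, CRELD2, ERO1B and PDIA6) and HYOU1 held the ERSE-II word.

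Genes of the same pathways were counted in lists chosen with earlier results of these data known, and each count stands beside 10.4% of all tested genes that rose and 9.24% that fell with siGYS1, and 23.4% that rose and 26.5% that fell with sip53. With siGYS1, 1 rose and 3 fell of 20 other ER chaperones and folding enzymes (median -0.16). ERO1A, the oxidase that recharges disulfide isomerases, rose (log2 0.56, SE 0.11, adjusted p = 0.00917; 0.53 and adjusted p = 0.0659 without NC replicate 2). TXNDC5, a disulfide isomerase, fell (log2 -0.88, SE 0.08, adjusted p = 0.000191), as did CRELD2 (log2 -0.47, SE 0.13, adjusted p = 0.0274), an ER stress-induced folding factor whose call ended without siGYS1 replicate 1 (-0.33), sip53 replicate 1 or 2 (-0.47 each) or NC replicate 2 (-0.36). With sip53, 4 of the 20 rose and 7 fell (median -0.09). ERO1A rose (log2 1.04, SE 0.12, adjusted p = 7.5e-05), and so did its paralog ERO1B (0.37, SE 0.12, adjusted p = 0.0282), which lost its call without sip53 replicate 1 (0.29), sip53 replicate 2 (0.45) or NC replicate 2 (0.29). TXNDC5 (-0.95, SE 0.08, adjusted p = 1.65e-05) and MESD (-0.44, SE 0.09, adjusted p = 0.00375), a chaperone of LDL receptor family proteins, fell. The 3 falls with siGYS1 were 1 without sip53 replicate 1 or 2 or NC replicate 2, and 6 without siGYS1 replicate 2. With sip53 the 4 rises and 7 falls were 1 and 3 without sip53 replicate 1, 1 and 4 without sip53 replicate 2 or NC replicate 2, and 2 and 6 without NC replicate 1.

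Of 12 other sensors and transcription factors of the response, 5 were called with sip53 and 1 with siGYS1, beside 49.9% and 19.7% of all tested genes. EIF2AK3, which encodes the sensor PERK, had 29.8 and 29.7 FPKM with sip53, against 15.4 and 13.6 FPKM with NC (log2 1.29, SE 0.11, adjusted p = 1.58e-05), and it was lower with siGYS1 than with sip53 (log2 -0.96, SE 0.11, adjusted p = 0.000104). The change of EIF2AK3 against NC ran from 0.99 to 1.38 over 15 alternatives, all of which kept the call. MBTPS2, the site-2 protease that cuts ATF6, rose with sip53 (0.38, SE 0.14, adjusted p = 0.0418), a call lost without sip53 replicate 1 (0.36), sip53 replicate 2 (0.40) or NC replicate 2 (0.25). NFYB, which encodes a subunit of the CCAAT factor NF-Y, fell with sip53 (-0.51, SE 0.09, adjusted p = 0.00101), as did CREB3L2, an ATF6-like factor (-0.74, SE 0.13, adjusted p = 0.00118). With sip53, 3 rose and 2 fell (median 0.14), and the 3 rises were 1 without sip53 replicate 1 or 2 or NC replicate 2, and 5 without siGYS1 replicate 1 or 2. With siGYS1, 0 rose and CREB3L2 alone fell (-0.43, SE 0.13, adjusted p = 0.0446), a call lost without siGYS1 replicate 2 (-0.23), where 2 rose and 1 fell, and without sip53 replicate 1 or 2 (-0.42 each), NC replicate 1 (-0.33) or NC replicate 2 (-0.52).

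Of 8 targets of the PERK and ATF4 branch, 5 rose and 0 fell with sip53 (median 0.53), a count of 4 or 5 without any 1 library. ATF3, a stress-induced transcription factor (log2 1.61, SE 0.21, adjusted p = 0.000173), and TRIB3, a pseudokinase (1.34, SE 0.10, adjusted p = 5.22e-06), rose most. The level of ATF3 was low, 6.99 and 4.85 FPKM with sip53 against 2.74 and 2.48 FPKM with NC. Its change with sip53 ran from 0.92 to 1.84 over 15 alternatives. With siGYS1, 2 of the 8 rose and 2 fell. ATF3 rose (1.10, SE 0.21, adjusted p = 0.00761) and so did SESN2 (0.32, SE 0.09, adjusted p = 0.0337), while CHAC1 (-0.66, SE 0.19, adjusted p = 0.0346) and ASNS (-0.59, SE 0.12, adjusted p = 0.0107), which encodes asparagine synthetase, fell. The ATF3 call held in 14 of 15 alternatives and was lost on log2(FPKM + 1) with no filter. The calls of SESN2 and CHAC1 both ended without sip53 replicate 1 or 2 (0.32 and -0.66 each), NC replicate 1 (0.37 and -0.59) or NC replicate 2 (0.27 and -0.73), that of CHAC1 also without siGYS1 replicate 1 (-0.49), and that of ASNS without NC replicate 2 (-0.47).

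Of 18 tested ERAD genes beside HERPUD1, 8 rose and 2 fell with sip53 (median 0.23), and the 10 called of 18 are near the 49.9% of all genes called. The mannosidase-like genes EDEM1 (log2 1.20, SE 0.11, adjusted p = 2.75e-05) and EDEM3 (0.76, SE 0.18, adjusted p = 0.00659) rose, and FAF2, which brings the ATPase VCP to the ER membrane (-1.03, SE 0.10, adjusted p = 4.38e-05), and EDEM2 (-0.43, SE 0.09, adjusted p = 0.00344) fell. The 8 rises were 3 without sip53 replicate 1, which also ended the call of EDEM3 (0.71), 5 without sip53 replicate 2, 6 without NC replicate 1 or 2, 9 without siGYS1 replicate 1 and 11 without siGYS1 replicate 2. With siGYS1, 0 of the 18 rose (4 without siGYS1 replicate 2) and 1, EDEM2, fell (-0.44, SE 0.09, adjusted p = 0.00944; -0.38 and adjusted p = 0.0967 without NC replicate 2). Between the knockdowns 10 of the 18 were lower and 1 higher with siGYS1, beside 20.9% of all tested genes lower and 22.5% higher. Without sip53 replicate 1, 4 were lower, without sip53 replicate 2, 5, and without NC replicate 1 or 2, 8.

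Of 25 genes of ER translocation and N-glycosylation, 1 rose and 1 fell with siGYS1 (median -0.03), SSR3 (0.27, SE 0.08, adjusted p = 0.0494), a subunit of the translocon-associated complex, and the glucosidase gene MOGS (-0.32, SE 0.09, adjusted p = 0.0298). Both calls ended without siGYS1 replicate 1 (0.21 and -0.31), sip53 replicate 1 or 2 (0.27 and -0.32 each), NC replicate 1 (0.26 and -0.32) or NC replicate 2 (0.27 and -0.31). With sip53, 3 rose, led by SPCS3 of the signal peptidase (0.62, SE 0.10, adjusted p = 0.000753) and SEC61G of the translocon (0.49, SE 0.13, adjusted p = 0.0129; lost without sip53 replicate 1 or 2 at 0.49 each, or NC replicate 1 at 0.34). The 6 that fell were led by the oligosaccharyltransferase genes STT3B (-0.78, SE 0.09, adjusted p = 8.74e-05) and RPN1 (-0.75, SE 0.09, adjusted p = 0.000106). The list's median with sip53 was -0.06. Its 3 rises were 1 without sip53 replicate 2 and 5 without siGYS1 replicate 1 or 2, and its 6 falls were 4 without sip53 replicate 1; with siGYS1, 3 rose and 5 fell without siGYS1 replicate 2.

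Of 16 genes of ER to Golgi traffic, 0 rose and 3 fell with siGYS1 (median -0.10), with the coat gene SEC24D at -0.53 (SE 0.13, adjusted p = 0.0195; lost without sip53 replicate 1 or 2 at -0.53 each, or NC replicate 1 at -0.43) and KDELR1, a receptor that returns ER chaperones from the Golgi, at -0.40 (SE 0.09, adjusted p = 0.0114; -0.38 without NC replicate 2, where it was lost). With sip53, 3 rose and 4 fell (median 0.04). SEC23A (0.84, SE 0.12, adjusted p = 0.000305) and SEC24A (0.75, SE 0.15, adjusted p = 0.00253) of the COPII coat rose, and TMED10 (-0.75, SE 0.09, adjusted p = 0.000137), a cargo receptor (-0.27 on log2(FPKM + 0.1), where it did not pass), and SEC24D (-0.57, SE 0.13, adjusted p = 0.00491; lost without sip53 replicate 2 at -0.51) fell. The 3 falls with siGYS1 were 1 without sip53 replicate 1 or 2 or NC replicate 1 or 2, while 2 rose and 4 fell without siGYS1 replicate 2, and the 4 with sip53 were 2 without sip53 replicate 2.

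The heat shock chaperones outside the ER, which answer to the separate heat shock response, gave 0 rises and 1 fall of 12 with siGYS1 (median -0.01), in HSP90AA1 (-1.49, SE 0.08, adjusted p = 1.5e-05), the inducible cytosolic HSP90. With sip53, 4 rose and 3 fell (median -0.08). DNAJB1 (0.48, SE 0.10, adjusted p = 0.00241) and BAG3 (0.37, SE 0.09, adjusted p = 0.0084; lost without sip53 replicate 2 at 0.30) rose, and HSP90AA1 (-0.67, SE 0.08, adjusted p = 9.49e-05) and HSPD1 (-0.59, SE 0.08, adjusted p = 0.000312) fell. The 4 rises were 1 without sip53 replicate 2, and 2 without sip53 replicate 1 or NC replicate 1 or 2. HSP90B1, the ER counterpart of HSP90AA1, was at -0.16 and -0.15 in the same comparisons and did not pass.

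Between the knockdowns, beside 22.5% of all tested genes higher and 20.9% lower with siGYS1 than with sip53, 2 of the 20 ER chaperones were higher and 3 lower (median -0.13). FKBP14, a prolyl isomerase, was lower (log2 -0.56, SE 0.10, adjusted p = 0.00138) and MESD higher (0.49, SE 0.09, adjusted p = 0.00256). The 3 lower were 7 without siGYS1 replicate 2 and 1 without sip53 replicate 1, and the 2 higher were 1 without sip53 replicate 1 or 2. Of the 12 sensors and transcription factors 1 was higher, NFYB (0.52, SE 0.09, adjusted p = 0.00106), and 3 were lower (median -0.15), which were 1 without sip53 replicate 2; 2 were higher without siGYS1 replicate 2. Of the PERK and ATF4 targets 0 of 8 were higher and 5 lower (median -0.49), led by CHAC1, which breaks down glutathione (-1.56, SE 0.17, adjusted p = 0.000101), and TRIB3 (-1.19, SE 0.09, adjusted p = 1.35e-05). They were 3 without sip53 replicate 1 and 4 without any other library. Of the ERAD genes, EDEM1 (-1.15, SE 0.11, adjusted p = 4.41e-05) and DERL2, a part of the retrotranslocation channel (-0.62, SE 0.10, adjusted p = 0.000862), were lower and FAF2 (1.18, SE 0.10, adjusted p = 2.4e-05) was higher with siGYS1.

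In the translocation and N-glycosylation list, 7 of 25 genes were higher and 4 lower with siGYS1 than with sip53 (median -0.0). Of all tested genes, 22.5% were higher and 20.9% lower. STT3B (log2 0.86, SE 0.09, adjusted p = 6.22e-05) and RPN1 (0.79, SE 0.09, adjusted p = 9.58e-05) were higher, and MOGS (-0.67, SE 0.09, adjusted p = 0.000213) was lower. The 7 higher were 4 without sip53 replicate 1 or 2. Of the 16 traffic genes 1 was higher, TMED10 (0.87, SE 0.09, adjusted p = 7.41e-05), and 3 were lower (median -0.12), among them SEC23A (-0.68, SE 0.12, adjusted p = 0.00131), and 2 lower without sip53 replicate 1. The TMED10 difference was as small as 0.34 among 15 alternatives, and its call was lost on log2(FPKM + 1) with no filter. Of the 12 heat shock chaperones 2 were higher, HSPD1 (0.76, SE 0.08, adjusted p = 8.5e-05) and HSP90AB1 (0.42, SE 0.08, adjusted p = 0.00224), and 3 were lower (median -0.05), among them HSP90AA1 (-0.82, SE 0.08, adjusted p = 3.56e-05), and 2 lower without sip53 replicate 1 or 2.

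**Figure D4:**
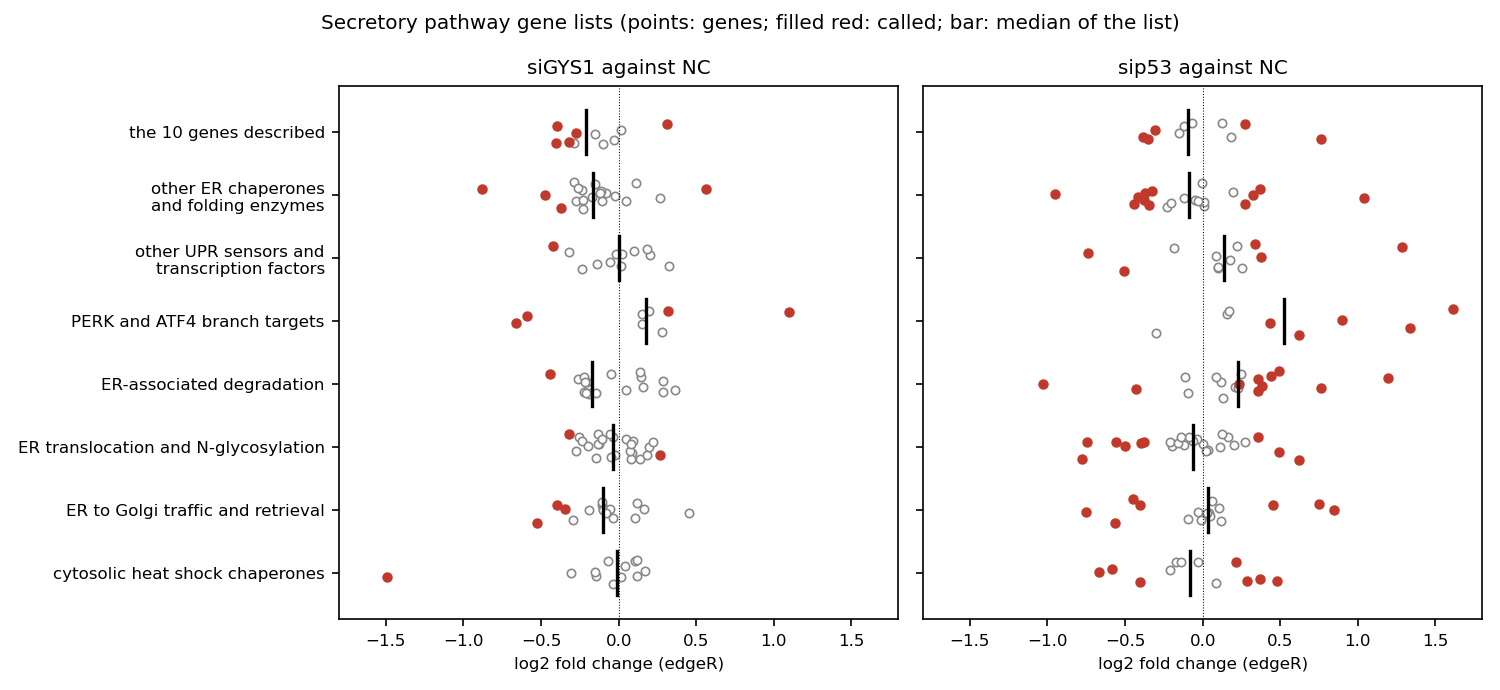
edgeR log2 fold change (horizontal axis) of each tested gene in 8 lists, for siGYS1 against NC and sip53 against NC; filled red points passed the test and black bars are list medians. The PERK and ATF4 targets lie farthest to the right with sip53 (median 0.53), and HSP90AA1 at -1.49 lies farthest to the left with siGYS1.

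Among 9524 other genes with a mean of at least 5 FPKM, likeness to a member was measured as the root mean square difference of centred log2 CPM over the 6 libraries. The nearest to HSPA5 were PPOX (0.022), WASHC3 (0.029), UBXN11 (0.031) and ARF1 (0.032). Those nearest to XBP1 were LPCAT3 (0.031), EDEM2 (0.032), OAZ2 (0.039) and DGKA (0.041), of which EDEM2 is in the ERAD list. Those nearest to HERPUD1 were ABTB1 (0.036), HPCAL1 (0.044), CYSTM1 (0.054) and TUBA1A (0.057). With so many genes and 6 libraries, such closeness describes these libraries only.

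**Figure D5:**
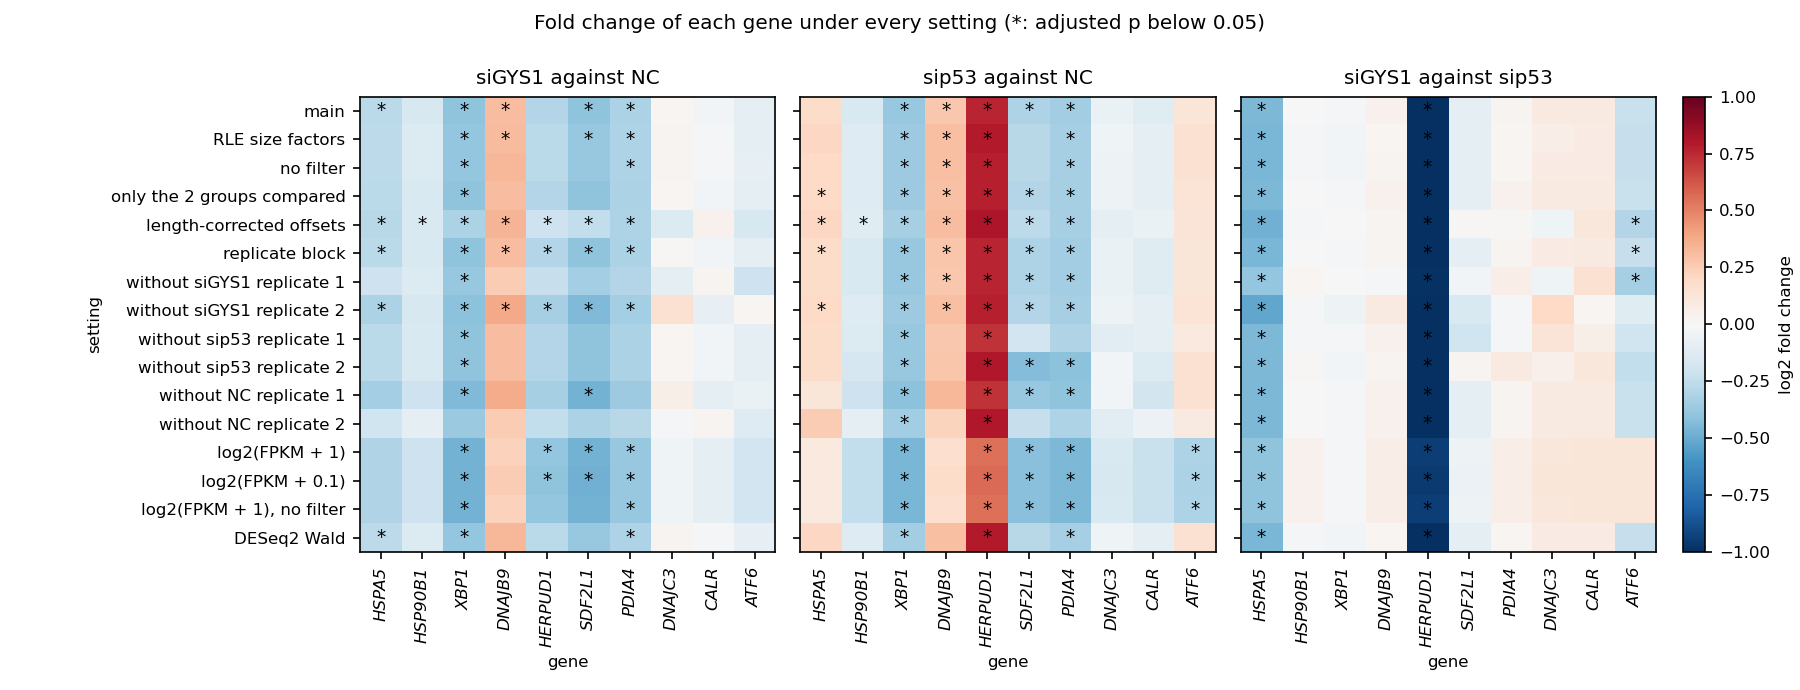
log2 fold change (colour, blue lower and red higher in the group named first) of the 10 genes (columns) under the main setting and 15 alternatives (rows), with an asterisk at adjusted p below 0.05. XBP1 and HERPUD1 with sip53, and HSPA5 and HERPUD1 between the knockdowns, keep their asterisk in every row.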

How the data were processed

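RNA-seq was measured in 6 libraries of TOV21G, 2 each of siGYS1, sip53 and NC. Per the file headers, the authors deposited read counts, normalized counts, TPM and FPKM for each library. The deposited read counts are expected counts, since 16.8% to 18.1% of values per library are not whole (tolerance 1e-09). The deposited normalized read counts, a scaled signal, and columns of group means were left out. The submitters' processing notes list aligners (HISAT2, STAR, TopHat), counters (Salmon, featureCounts, HTSeq) and DESeq2 and edgeR without roles or versions, and the build mm10, although 16830 of 16910 identifiers are in human GENCODE 29. The sources used here do not say which tool or build made the table.

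Expected counts were rounded and fitted in edgeR 4.0.16 (R 4.3.3): filterByExpr (minimum count 10, 3675 genes removed), TMM, 1 quasi-likelihood fit over all 6 libraries with group alone (3 residual degrees of freedom), and Benjamini-Hochberg adjustment over 13235 genes. SE is the absolute log2 fold change over the root of F; 95% intervals use the median total degrees of freedom. FPKM are per library total, without the TMM factors (0.9675 to 1.0399) that the fold changes include. Alternatives used DESeq2 1.42.0, limma 3.58.1, other scaling, filters and offsets corrected for length, and left out each library. Replicates differed beyond sampling noise in every group (chi-square per degree of freedom 3.36 to 15.4). The edgeR fit was also tested on simulated data with known changes. Genes named outside the 10 are GYS1, the largest changes each way per list, and the nearest by likeness; genes with overlapping exons were added after their values were seen. The members and lists were chosen with earlier results of these data known. ATF6B and the target of sip53 are not reported here. Promoters are RefSeq's, matched for 10 of 10 genes.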

Additional observations from a re-analysis of the deposited data

How the results depend on the processing

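XBP1 and HERPUD1 with sip53 and HSPA5 and HERPUD1 between the knockdowns kept their calls in all 15 alternatives; the other calls were lost in at least 1 alternative. The 5 calls with siGYS1 were 2 with no filter, 1 with only both compared groups fitted, 2 on log2(FPKM + 1) with no filter and 3 with the DESeq2 Wald test, and 0 to 6 without 1 library. The 5 with sip53 were 3 with DESeq2 and 2 to 6 without 1 library, and the 2 between the knockdowns were 2 to 3. Over all genes, the 2602 called with siGYS1 were 1577 with only both compared groups, 4122 with length-corrected offsets, 941 on log2(FPKM + 1) with no filter and 926 to 4260 without 1 library; the 6605 with sip53 were 4271 to 7621 and the 5745 between the knockdowns 3416 to 6337 without 1 library. The causes were not tested. The shared replicate numbers give only 2 pairs, so they were not taken to pair the samples. Replicate differences correlated between groups by 0.12 to 0.59 over 11187 genes, and with a replicate block 4662 genes were called with siGYS1, and 6, 6 and 3 of the 10 genes in the 3 comparisons; the added calls were HERPUD1 with siGYS1 (-0.29, edgeR adjusted p = 0.0131), HSPA5 with sip53 (0.18, adjusted p = 0.0347) and ATF6 between the knockdowns (-0.23, adjusted p = 0.0192), and no other call of the 10 genes changed.

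Signs turned for values that had not passed. With siGYS1, DNAJC3 was at -0.14 with length-corrected offsets, -0.04 on each FPKM scale and -0.10 to 0.15 without 1 library, CALR at 0.04 with length-corrected offsets and -0.09 to 0.03 without 1 library, and ATF6 at -0.21 to 0.02 without 1 library. With sip53, ATF6 was at -0.31 on log2(FPKM + 1), filtered or not, and -0.32 on log2(FPKM + 0.1). Between the knockdowns, ATF6 was at 0.12 on each FPKM scale, HSP90B1 at 0.04 on each and 0.00 with only both groups, XBP1 at 0.00, SDF2L1 at 0.01 and DNAJC3 at -0.04 with length-corrected offsets. Without 1 library, those differences ran from -0.02 to 0.02 for HSP90B1, -0.05 to 0.00 for XBP1, -0.02 to 0.09 for DNAJB9, -0.20 to 0.03 for SDF2L1, -0.02 to 0.09 for PDIA4 and -0.04 to 0.20 for DNAJC3. The number of libraries, 2 a group, limits which small changes can be called.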
